A study of Homo sapiens with 4 samples.

Results

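The cytokine and chemokine genes driven by NF-kB are described here in HeyC2 and SKOV3, 2 human epithelial ovarian cancer cell lines, after TET1 expression. They are 10 genes, chosen by symbol, out of 26506 gene symbols in the tables: IL6, IL8, CXCL1, CXCL2, CCL2, CCL20, IL1A, IL1B, LIF and TNFAIP3. All 10 were found, IL8 under its newer symbol CXCL8. Each line was transfected by lipofection with a pCMV6 plasmid carrying TET1, an enzyme that oxidises methylated cytosine (the TET1-reprogrammed cells), or with the same plasmid empty (the control), and was grown under selection with Geneticin. The labels give the controls as wild-type and the other libraries as TET1 overexpressed, state no time after transfection, and do not say whether clones were picked. RNA was sequenced in 1 library per condition, 4 in all, so no difference reported here has a replicate check and no p-value is given.

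NF-kB is a family of transcription factors held in the cytoplasm by inhibitor proteins such as the product of NFKBIA. Signals from the IL-1 and TNF receptors activate the IKK kinase, which marks the inhibitor for destruction, and the freed RELA-containing dimers bind promoters of cytokines and chemokines. TNFAIP3, a ubiquitin-editing enzyme that dampens this signal, is itself a target gene and closes a feedback loop. IL6, IL8 and the CXCL chemokines are secreted by many ovarian cancer cells, and neutrophil recruitment and blood vessel growth are among their known actions.

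The promoter stretches of the 7 members that are in the RefSeq promoter table and passed the filter described below in both lines are printed first. They are printed because NF-kB acts through promoter sequence and these letters differ between the members. Each runs from 120 bases before to 30 bases after the annotated start, 5′ to 3′ on the strand of the gene, and capitals mark matches on either strand to the NF-kB consensus of 10 bases or, chosen after the sequences were seen, to GGAATTTCC. Coordinates are those of GRCh38.p14, the build of the RefSeq table, whereas the expression tables were made on hg19. The window of IL8 lies at chr4:73740449-73740598 on the plus strand. CXCL1 was read from chr4:73869273-73869422, plus strand. The window of CXCL2 lies at chr4:74099166-74099315 on the minus strand. IL6 was read from chr7:22727080-22727229, plus strand. The window of TNFAIP3 lies at chr6:137867139-137867288 on the plus strand. IL1A was read from chr2:112784464-112784613, minus strand. The window of IL1B lies at chr2:112836750-112836899 on the minus strand.
IL8: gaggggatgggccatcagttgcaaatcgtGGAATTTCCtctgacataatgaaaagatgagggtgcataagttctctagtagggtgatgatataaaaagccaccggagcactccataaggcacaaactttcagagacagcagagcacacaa
CXCL1: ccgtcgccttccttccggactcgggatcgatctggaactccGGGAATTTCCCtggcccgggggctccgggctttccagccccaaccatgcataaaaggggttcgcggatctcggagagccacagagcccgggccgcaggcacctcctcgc
CXCL2: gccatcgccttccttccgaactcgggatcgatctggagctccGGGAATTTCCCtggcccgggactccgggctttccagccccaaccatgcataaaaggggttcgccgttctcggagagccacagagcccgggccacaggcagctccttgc
IL6: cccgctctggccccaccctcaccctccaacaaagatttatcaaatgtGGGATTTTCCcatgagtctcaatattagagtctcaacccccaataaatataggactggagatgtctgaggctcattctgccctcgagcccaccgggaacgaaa
TNFAIP3: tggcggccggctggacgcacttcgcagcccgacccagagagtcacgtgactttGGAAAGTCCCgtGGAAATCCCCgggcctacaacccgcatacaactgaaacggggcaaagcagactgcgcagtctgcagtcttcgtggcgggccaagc
IL1A: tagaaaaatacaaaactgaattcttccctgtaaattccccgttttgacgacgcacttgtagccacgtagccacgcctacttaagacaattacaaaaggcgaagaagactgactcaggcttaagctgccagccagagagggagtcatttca
IL1B: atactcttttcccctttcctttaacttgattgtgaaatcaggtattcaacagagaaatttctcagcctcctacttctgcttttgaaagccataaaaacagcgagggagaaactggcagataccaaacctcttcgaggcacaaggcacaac

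Across the whole 300-base windows, the consensus was found in 5 of the 8 members with an entry (IL6, CXCL1, CXCL2, CCL20 and TNFAIP3), beside 3956 of 35116 windows in the table (11.3%). In IL6 the match GGGATTTTCC began 73 bases before the start. CXCL1 and CXCL2 carried the same GGGAATTTCC, at −79 and −78. TNFAIP3 held 2 matches on the minus strand, read on the plus strand as GGAAAGTCCC at −67 and GGAAATCCCC at −55. IL8 held GGAATTTCC at −91, which occurred in 0.461% of all windows, and an AP-1 motif (TGACTCA, or TGAGTCA) at −137, outside the printed stretch. The AP-1 motif, found in 4.95% of all windows, was also present in IL1A, at −12 and at 39. Neither NF-kB motif was present in the windows of IL1A and IL1B, which says only that these letters are not there. CG dinucleotides, the sites at which TET1 acts when methylated, numbered 35 in TNFAIP3, 22 in CXCL1, 22 in CXCL2, 8 in IL1A, 7 in IL6, 4 in IL8, 3 in CCL20 and 2 in IL1B, against a median of 14 over all windows. IL1A has 2 windows in the table, of which the one at the outer end of the gene was used. CCL2 and LIF had no entry in the table.

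Levels are FPKM, fragment numbers scaled to transcript length and sequencing depth, so they can be compared between genes. GAPDH, a glycolytic enzyme used as a reference gene, has the same deposited FPKM in TET1 and control, 5417.35 for HeyC2 and 2248.44 for SKOV3, because each TET1 column had been multiplied by a constant of 3.2344 in HeyC2 and 1.3456 in SKOV3 (1.69 and 0.43 on the log2 scale). The sources used here do not state this step, which was inferred from the spacing of the deposited values. FPKM of TET1 libraries are given here divided by that constant unless called deposited. The relative log2 change is log2 of (FPKM + 1) in the TET1 library minus that in the control, minus the median of this difference over all genes of the line whose mean FPKM was 1 or more. That median was 0.06 over 11894 genes in HeyC2 and 0.19 over 13013 genes in SKOV3. A gene was called higher or lower at 1.5-fold, a relative log2 change of 0.58. The pseudocount of 1 understates the change of genes with low FPKM, so the ratio of estimated fragments with its exact 95% Clopper-Pearson interval, on the same relative scale, is given beside it. These intervals cover counting error only, and fragments amplified by PCR without molecular identifiers are not independent molecules.

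Estimated depth was 6790000 to 7670000 fragments per library, and 15162 to 16941 genes had an FPKM above 0. TET1 itself was at 0.20 FPKM in the HeyC2 control and 0.52 in HeyC2 TET1, and at 0.43 and 1.80 in SKOV3. The fragment ratio was 1.34 (0.40 to 2.36) in HeyC2, from 14 and 33 estimated fragments. In SKOV3 it was 1.86 (1.27 to 2.5), from 30 and 115. TET1 was thus higher in both libraries labelled for it, but at a low level, and it failed the filter in HeyC2. Across 13089 genes the log2 values of the HeyC2 pair correlated at 0.962 and those of the SKOV3 pair at 0.910, while pairs between the lines lay between 0.711 and 0.751. The keratins KRT8 and KRT18 and the Müllerian marker PAX8 were at 74.59 FPKM or more in all 4 libraries, whereas MUC16 and WT1 did not exceed 0.53 FPKM. EPCAM and CDH1 reached at most 0.38 FPKM in HeyC2. KRT7, another keratin, went opposite ways, as the CXC chemokines did: it was at 1537.20 FPKM in the control and 21.96 in TET1 of SKOV3 (relative log2 change −6.26), and at 289.68 and 1124.57 in HeyC2 (1.90). KRT19 was at 255.14 and 0.46 FPKM in SKOV3 (−7.65) and at 0.62 and 1.59 in HeyC2 (0.62), and CDH1 was higher in SKOV3, at 2.24 and 6.30 FPKM (0.98). Of 8 leukocyte markers, CD68 and LYZ passed 1 FPKM in every library, their list summed to 57.91 and 93.72 FPKM in HeyC2 control and TET1 and to 15.25 and 22.98 in SKOV3, and CD3E and MS4A1 were listed at 0 in all 4. Of 6 stromal and endothelial markers the sums were 2.87, 3.63, 1.15 and 28.11 FPKM in the same order, COL1A1 making up 27.66 of the last. What part the markers that moved had in the cytokine values was not tested, and in RNA of a whole culture fewer expressing cells and less RNA per cell cannot be told apart.

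In SKOV3 the TET1-reprogrammed library held lower levels of nearly the whole group. Of the 9 members that passed the filter, 8 were at least 1.5-fold lower and 0 were higher, where 18.2% of all genes tested were lower and 20.7% higher. The member median was −1.64 on the relative log2 scale. Of the 8, IL6, IL1A and IL1B passed the filter only through the control and rested on 4, 4 and 2 estimated fragments in the TET1 library, so neither the count nor the median is support for a change of the group. The other 5 lower members were above 1 FPKM in both libraries. IL8 had the largest difference, 14.6-fold. The order of the rest depends on the low values, CXCL1 being next on the log2(FPKM + 1) scale and IL1B by fragment ratio. HeyC2 gave a divided picture: of 8 members that passed, 3 were higher (IL8, CXCL1 and CXCL2), against 12.5% of all genes, and 3 were lower (IL6, IL1B and LIF), against 9.17%. The HeyC2 median was 0.35. IL6, IL1B and LIF were thus lower in both lines, and the 3 CXC chemokines went opposite ways.

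**Figure D1:**
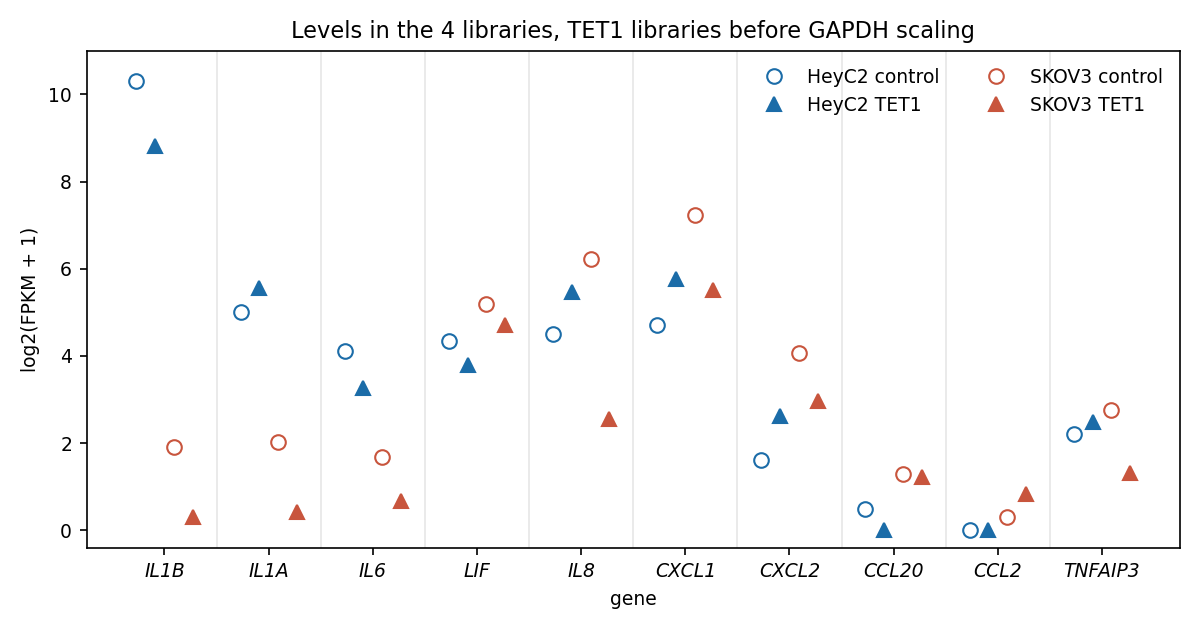
Levels of the 10 genes in the 4 libraries, as log2(FPKM + 1), with TET1 libraries divided by the GAPDH constant; open circles are controls, triangles TET1, blue HeyC2 and red SKOV3, 1 point per library. IL1B in the HeyC2 control, at 1271.30 FPKM, stands above every other point, and the SKOV3 TET1 triangle lies below the SKOV3 control for every gene except CCL2.

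The CXC chemokines signal through CXCR2, and IL8 also through CXCR1. IL8 (GRCh37 chromosome 4, 74606236 to 74609433, plus strand) was at 21.71 FPKM in HeyC2 control cells and 43.13 in HeyC2 TET1 cells, and at 74.28 and 4.89 in the same SKOV3 pair, from an estimated 240, 426, 789 and 48 fragments. The SKOV3 control was thus the highest of the 4 and SKOV3 TET1 the lowest, with both HeyC2 libraries between them. Its relative log2 change was 0.90 in HeyC2 (fragment ratio 0.93, 0.70 to 1.17) and −3.87 in SKOV3 (−4.11, −4.56 to −3.69). In SKOV3 this placed IL8 at percentile 0.108 of all genes tested, and its rank by level moved from 1172 in the control to 10034.

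CXCL1 (chromosome 4, 74735110 to 74737025, plus strand) was the most abundant chemokine of the group in each library. HeyC2 held 25.15 FPKM of it in the control and 53.72 with TET1, and SKOV3 held 150.64 and 44.81. The controls stood far apart, whereas the TET1 libraries were close to each other. The change was 2.01-fold higher in HeyC2 (relative log2 1.01, fragment ratio 1.04, 0.78 to 1.30) and 3.78-fold lower in SKOV3 (−1.92, fragment ratio −1.94, −2.13 to −1.75).

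CXCL2 (chromosome 4, 74962757 to 74964913, minus strand) was less abundant than CXCL1 in every library. Its FPKM went from 2.08 in control to 5.14 in TET1 for HeyC2, and from 15.69 to 6.84 for SKOV3. The relative change was 0.94 in HeyC2 and −1.28 in SKOV3, with 15 and 32 estimated fragments in the HeyC2 pair and a correspondingly wide interval (fragment ratio 1.2, 0.27 to 2.19). The SKOV3 pair rested on 106 and 43 fragments (−1.38, −1.92 to −0.85). CXCL1, CXCL2 and CXCL3 are close paralogs whose fragments RSEM can divide between them, so their single values are uncertain. CXCL3, no member, was at 1.64, 2.10, 4.45 and 1.68 FPKM in the order HeyC2 control and TET1, SKOV3 control and TET1, a relative change of 0.17 in HeyC2 and −1.22 in SKOV3.

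The CC chemokines were barely measurable. CCL2 (chromosome 17, 32582293 to 32584227, plus strand), which attracts monocytes, was listed at 0 in both HeyC2 libraries and at 0.24 and 0.78 FPKM in the SKOV3 control and TET1, an estimated 1 and 3 fragments, and failed the filter in both lines. CCL20 (chromosome 2, 228670455 to 228682280, plus strand), the ligand of CCR6, was at 0.40 FPKM in the HeyC2 control and listed at 0 in HeyC2 TET1, and failed the filter there. In SKOV3 it was at 1.47 and 1.34 FPKM from 7 and 6 fragments, a relative log2 change of −0.27 and the only member that passed in SKOV3 without being called. Its fragment interval, −2.14 to 1.5, holds 0, so no difference was detectable at this depth.

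The interleukin-1 cytokines differed more between the controls of the lines than any other member. IL1B (chromosome 2, 113587328 to 113594393, minus strand), made as a precursor that caspase-1 cleaves, was at 1271.30 FPKM in HeyC2 control cells, 452.27 after TET1 there, 2.76 in SKOV3 control cells and 0.23 after TET1. By level it ranked 55 in the HeyC2 control and 150 with TET1, but 10378 and 15316 in SKOV3. The relative log2 change was −1.55 in HeyC2, a 2.92-fold lower level at percentile 0.757 of all genes, with 12754 and 4052 estimated fragments and a fragment interval of −1.60 to −1.50. As deposited, the HeyC2 TET1 value is 1462.82 FPKM and exceeds the control, since that column carries the GAPDH constant. Relative to the median gene IL1B was lower under each alternative, at −1.57 to −1.41, the deposited column included. In SKOV3 the change was −1.80, or −3.83 as a fragment ratio, but it rested on 27 against 2 fragments (−6.95 to −1.84).

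IL1A (chromosome 2, 113531502 to 113542070, minus strand), a cytokine that is active without caspase-1, was at 31.11, 45.87, 3.06 and 0.33 FPKM in the same library order. In HeyC2 its relative change of 0.49 stayed under the threshold, and the fragment ratio was 0.50 (0.32 to 0.68). In SKOV3 it was lower, with a relative log2 change of −1.81 from 41 against 4 fragments (fragment ratio −3.43, −5.37 to −1.97). Since both genes were measured in the same library, their ratio is free of any scaling: IL1B to IL1A was 40.9 in control and 9.86 in TET1 cells of HeyC2, and 0.902 and 0.705 in those of SKOV3. The HeyC2 ratio was thus lower with TET1 whatever the normalization, as was IL1B to IL8, at 58.6 and 10.5.

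IL6 and LIF act through receptors that share the subunit encoded by IL6ST. IL6 (chromosome 7, 22765503 to 22771621, plus strand) was at 16.31 (control) and 8.59 (TET1) FPKM in HeyC2, and at 2.22 and 0.59 in SKOV3. Each TET1 library was below its control, with a relative change of −0.91 in HeyC2 (1.88-fold, fragment ratio −0.97, −1.46 to −0.50) and −1.21 in SKOV3 (2.32-fold, from 15 against 4 fragments, −4.03 to −0.33). As with IL1B, the deposited HeyC2 TET1 value of IL6, 27.78 FPKM, is above the control.

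LIF (chromosome 22, 30636442 to 30642748, minus strand), known for maintaining stem cells in culture, was at 19.39, 12.87, 35.64 and 25.12 FPKM in that order. Its changes of −0.61 in HeyC2 and −0.68 in SKOV3 were nearly equal and lay just past the threshold (fragment ratios −0.65, −0.85 to −0.45, and −0.70, −0.84 to −0.55), and the call was lost with the deposited column in HeyC2 (−0.55) and with upper-quartile scaling or centring on the 500 nearest genes in SKOV3. The ratio of IL6 to LIF was 0.841, 0.667, 0.0623 and 0.0234 in HeyC2 control, HeyC2 TET1, SKOV3 control and SKOV3 TET1.

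TNFAIP3 (chromosome 6, 138188351 to 138204451, plus strand), the one intracellular protein of the group, was at 3.65, 4.64, 5.76 and 1.48 FPKM in that order. In HeyC2 it was within the threshold (relative log2 0.22, fragment ratio 0.29, −0.07 to 0.65), and in SKOV3 it was 3.11-fold lower (−1.64, fragment ratio −2.14, −2.65 to −1.67, from 189 against 45 fragments). The ratio of IL8 to TNFAIP3, both target genes of NF-kB, was 5.95 and 9.29 in control and TET1 cells of HeyC2, and 12.9 and 3.31 in those of SKOV3.

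Summed over the 10 members, the level was 1391 FPKM in control and 626 in TET1 cells of HeyC2, and 292 and 86.4 FPKM in those of SKOV3. IL1B made up 91.4% and 72.2% of the HeyC2 sums and 0.946% and 0.267% of the SKOV3 sums. Without IL1B the sums were 119.8 and 174 FPKM in HeyC2 and 289 and 86.2 in SKOV3, so the HeyC2 sum was lower with TET1 when IL1B was counted and higher when it was left out. Members at 1 FPKM or more numbered 8 in each HeyC2 library, and 9 (control) and 6 (TET1) in SKOV3.

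Setting the change in HeyC2 beside that in SKOV3, the difference was 4.77 for IL8, 2.93 for CXCL1, 2.29 for IL1A, 2.22 for CXCL2 and 1.86 for TNFAIP3, at percentiles 98.3 to 99.9 of the 11134 genes that passed in both lines. It was 0.30 for IL6, 0.26 for IL1B and 0.07 for LIF, at percentiles 50.3 to 64.1. With 1 library per condition the difference between lines was not tested. Of all 11134 genes, 1.77% were higher in HeyC2 and lower in SKOV3, as 3 of the 8 members were, and 2.54% were lower in both, as were another 3. IL6, IL1A and IL1B passed in SKOV3 only through the control.

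**Figure D2:**
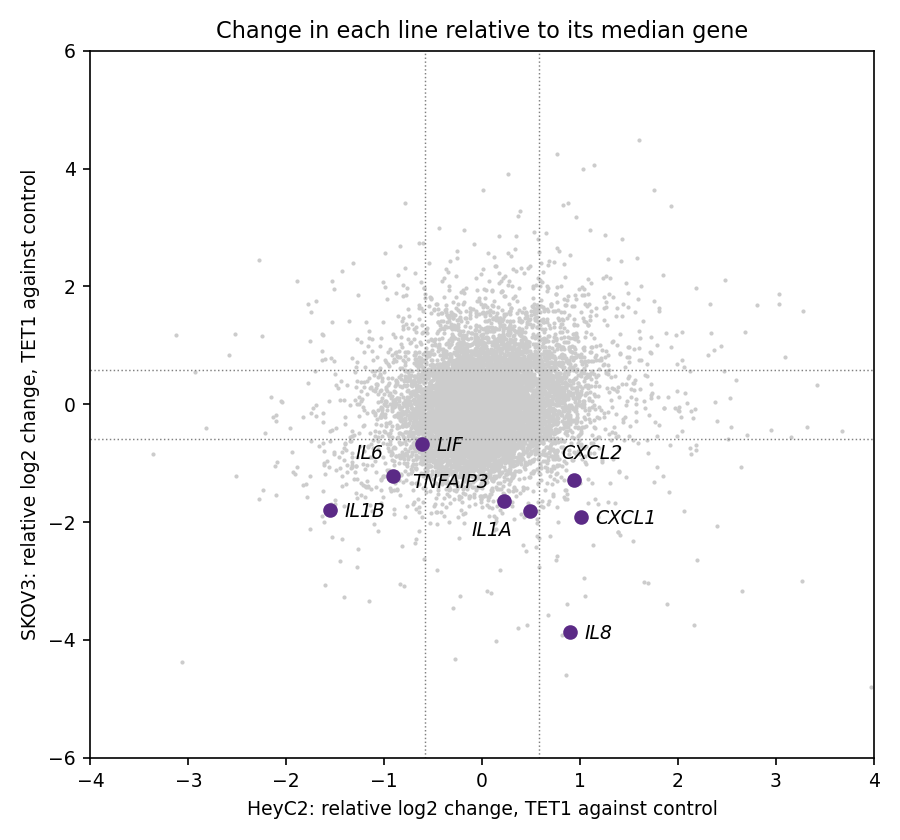
Relative log2 change with TET1 in HeyC2 (horizontal) and SKOV3 (vertical) for the 11134 genes that passed in both lines (grey; 5 genes lie outside the axes) and the 8 members among them (purple), with dotted lines at 1.5-fold. All 8 members lie below the lower SKOV3 line, while in HeyC2 they spread from −1.55 for IL1B to 1.01 for CXCL1. IL6, IL1A and IL1B passed in SKOV3 only through the control.

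The controls of the lines already differed in these genes. IL1B was 8.67 higher in HeyC2 than in SKOV3 on the relative log2 scale, IL1A 3.25 and IL6 2.69, whereas IL8 (−1.46), CXCL1 (−2.27) and CXCL2 (−2.17) were lower in HeyC2. LIF (−0.58, just short of 1.5-fold) and TNFAIP3 (−0.27) were within the threshold, so 3 of 8 members were higher and 3 lower, beside 29.0% and 28.6% of 12488 genes. Here the all-gene median before centring was −0.27, and both columns are as deposited but stand in separate tables. This comparison uses the control libraries of the TET1 comparisons, so the values are given side by side and no relation between them was computed.

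The same counts were made in lists of other genes of the pathway, with the same thresholds. Each is to be read beside the shares of all genes tested. These were 12.5% higher and 9.17% lower in HeyC2, and 20.7% and 18.2% in SKOV3. Among 12 receptors of the members, 5 passed in HeyC2 and 0 were called. CXCR1 and CXCR2, the receptors of IL8 and the CXCL chemokines, CCR2 and TNFRSF1B were listed at 0 FPKM in all 4 libraries. In SKOV3 2 of 7 were higher: IL1R1, the signalling IL-1 receptor, was at 1.81 FPKM in the control and 34.06 in TET1 (3.45), and IL1R2, a decoy that binds IL-1 without signalling, at 0.82 and 17.21 (3.13). IL1R2 passed the filter only through the TET1 library. IL1RAP, also on the list, was within the threshold in SKOV3 (0.12). No relation of the receptor values to those of IL1A and IL1B was tested. The receptor medians were −0.37 and 0.02. In HeyC2 the lowest receptors were TNFRSF1A (−0.58, just short of 1.5-fold) and LIFR (−0.51), and in SKOV3 IL6R (−0.45) and TNFRSF1A (−0.23).

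All 21 genes of the NF-kB core and IKK passed in both lines. In HeyC2 2 were higher and 4 lower, with a median of −0.42. NFKBIA, the inhibitor that NF-kB itself induces, was at 43.62 FPKM in the control and 126.05 in TET1 (1.45), and IKBKB, a catalytic subunit of IKK, at 9.98 and 20.36 (0.90). The lower genes were RELB (−0.84), TRAF6 (−0.72), RIPK1 (−0.67) and NFKBIB (−0.59). In SKOV3 4 were higher and 5 lower, with a median of −0.20. BCL3 (17.06 and 59.56 FPKM, 1.55) and NFKBIZ (14.67 and 47.27 FPKM, 1.43), nuclear members of the inhibitor family, were the highest, and NFKB1, which encodes an NF-kB subunit precursor (16.78 and 5.75 FPKM, −1.59), and IRAK1 (−1.01), a kinase of the IL-1 receptor pathway, the lowest. NFKBIA was among the lower genes in SKOV3 (46.51 and 34.83 FPKM, −0.60) and RELB among the higher (0.61), each opposite to its HeyC2 call. RELA was within the threshold in both lines, at 0.27 and −0.22.

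Of 11 negative regulators, 9 passed in each line, and 0 were higher and 2 lower in HeyC2, 2 higher and 1 lower in SKOV3. TNIP1, a partner of the TNFAIP3 protein, was the only gene of these lists lower in both lines, from 157.90 to 91.43 FPKM in HeyC2 (−0.84) and from 45.79 to 28.17 in SKOV3 (−0.87). CYLD, a deubiquitinase, was lower in HeyC2 (−0.79) and higher in SKOV3 (0.67). TAX1BP1 was higher in SKOV3 (0.59). IL1RN, the IL-1 receptor antagonist, did not exceed 0.10 FPKM. In HeyC2 ITCH (0.55) and RNF11 (0.16) had the highest changes, and in SKOV3 TOLLIP (−0.19) followed TNIP1 as the next lowest.

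Of 30 other NF-kB targets, 17 passed in HeyC2, 7 higher and 3 lower, with a median of 0.30. In SKOV3 13 passed, 3 higher and 6 lower, with a median of −0.38. Of all genes tested, 12.5% were higher and 9.17% lower in HeyC2, and 20.7% and 18.2% in SKOV3. BCL2A1 in HeyC2 and TNF, IL32 and SAA1 in SKOV3 passed the filter only through the control. Neither the counts nor the medians are thus support for a change of the list. The adhesion molecule ICAM1 (5.24 and 19.39 FPKM, 1.65) and TNF (6.99 and 17.24 FPKM, 1.13) were the highest in HeyC2. The colony-stimulating factor CSF3 (62.33 and 24.47 FPKM, −1.37) and BCL2A1 (−1.25), a survival protein, were the lowest. In SKOV3, IL32 (24.03 and 0.77 FPKM, −4.01) and SAA1 (9.16 and 0.42 FPKM, −3.03), a secreted acute-phase protein, were the lowest, and TNFAIP2 (32.55 and 114.11 FPKM, 1.59) and CCL5 (1.02) the highest. TNF was at 4.5 and 0.20 FPKM in SKOV3 (−2.39), CSF1 at 56.27 and 12.89 (−2.24), and SOD2, a mitochondrial antioxidant enzyme, at 159.58 and 60.64 (−1.57). These 3 genes were higher in HeyC2, at 1.13, 0.69 and 0.84, as IL8, CXCL1 and CXCL2 were. TNFAIP2 was the only listed gene outside the cell type markers that was higher in both lines, at 0.74 in HeyC2. TNF, CSF1 and SOD2 were picked out after their values were seen.

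AP-1, C/EBP and STAT3 can act on some of the promoters on which NF-kB acts. Among the members' windows the AP-1 motif was found in IL8 and IL1A only, and C/EBP and STAT3 motifs were not searched. All 12 genes of this list passed. In HeyC2 4 were higher and 0 lower, and in SKOV3 2 were higher and 3 lower. FOS was at 12.37 FPKM in the HeyC2 control and 138.04 in TET1 (3.32), and JUNB at 43.78 and 210.40 (2.18). CEBPB (−0.51) and ATF3 (−0.47) were the lowest there. In SKOV3 FOSL1, an AP-1 subunit, was at 131.97 FPKM in the control and 10.38 in TET1 (−3.74). JUNB (−0.69) was next lowest, and FOSL2 (0.80) and CEBPB (0.62) were the highest. FOS (−0.39), JUN (0.08) and JUND (0.08) were within the threshold in SKOV3, as FOSL1 was in HeyC2 (0.46). No relation of these genes to the members was tested.

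Cytokine mRNAs carry AU-rich elements through which they are degraded. Of 9 genes for factors that bind or act on such mRNAs, 1 was higher and 0 lower in HeyC2 (median −0.18). In SKOV3 0 were higher and 6 lower (median −0.94). Of all genes tested, 12.5% were higher and 9.17% lower in HeyC2, and 20.7% and 18.2% in SKOV3. ZFP36, which promotes decay and is itself induced with the cytokines, was at 8.70 and 16.68 FPKM in HeyC2 (0.81) and at 56.04 and 26.77 in SKOV3 (−1.23). HNRNPD was equally low in SKOV3 (238.01 and 115.75 FPKM, −1.23) and at −0.56 in HeyC2. ZFP36L1 stayed within the threshold at 0.51 and 0.15, ZFP36L2 was at −0.49 in HeyC2, and RC3H1 was at 0.06 in SKOV3.

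For IL-1 processing, 6 of 7 genes passed in HeyC2 and 1 was lower, CASP1, the protease that cleaves the IL1B precursor, at 28.13 FPKM in the control and 15.56 in TET1 (−0.87). NLRP3, the sensor of the inflammasome, was at 3.31 and 2.08 FPKM (−0.54). PYCARD, the adaptor between the sensor and caspase-1, was listed at 0 FPKM in both HeyC2 libraries and did not exceed 0.28 in SKOV3. IL18, a cytokine that caspase-1 also cleaves, was at 0.32 in HeyC2 and, with 52.41 and 21.08 FPKM, at −1.47 in SKOV3, the only call among 4 genes there. GSDMD (0.19 and 0.10), CASP4 (−0.44 in SKOV3) and CAPN1 (−0.23 in SKOV3) stayed within the threshold.

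**Figure D3:**
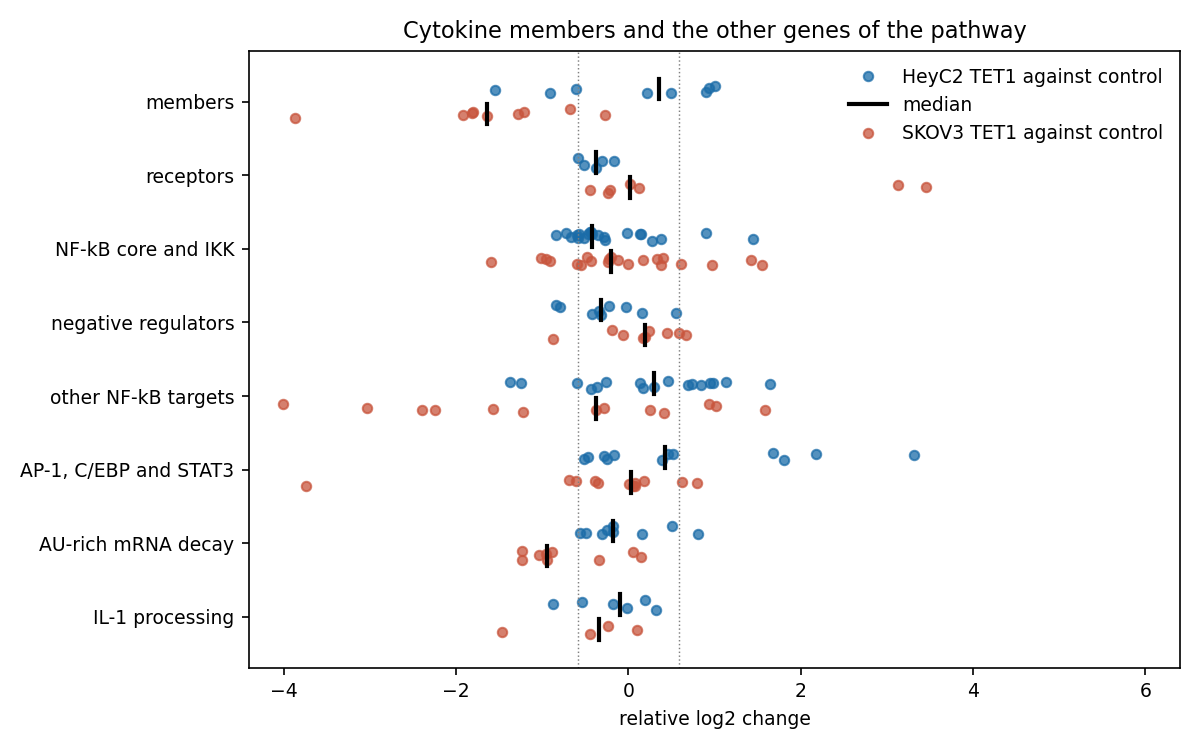
Relative log2 change of each gene that passed the filter, by list, in HeyC2 (blue) and SKOV3 (red), with a black bar at the median of each list and dotted lines at 1.5-fold. The member median is 0.35 in HeyC2 and −1.64 in SKOV3, where IL6, IL1A and IL1B passed the filter only through the control.

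IL8, CXCL1 and CXCL2 lie within 359 kb on chromosome 4, and the genes up to 1000 kb on either side were examined after the values had been seen. The chemokine genes CXCL5, CXCL6, PF4 and PPBP, which lie between them, were listed at 0 FPKM in all 4 libraries. Of the other neighbours, COX18 (0.02 in HeyC2 and −0.20 in SKOV3) was within the threshold, and ANKRD17 was within it in HeyC2 (−0.52) and lower in SKOV3 (−0.62). RASSF6 (−0.06) and MTHFD2L (0.03) passed in SKOV3 only and were within it. Of 18 neighbours, 4 passed in HeyC2 and 0 were called, and 8 passed in SKOV3, 0 higher and 4 lower (ANKRD17, CXCL3, EREG and AREG). Of all genes tested, 12.5% were higher and 9.17% lower in HeyC2, and 20.7% and 18.2% in SKOV3. EREG passed only through the control, so the SKOV3 count is not support for a change of the region. The growth factor genes EREG and AREG, farther along the chromosome, had lower FPKM in SKOV3 TET1. EREG was at 2.66 FPKM in the SKOV3 control and listed at 0 with TET1, so no fold is given, and AREG was at 5.48 and 2.17 (−1.22), while its HeyC2 change was 0.02. BTC, a growth factor gene of the same family, was at −0.37 in SKOV3.

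**Figure D4:**
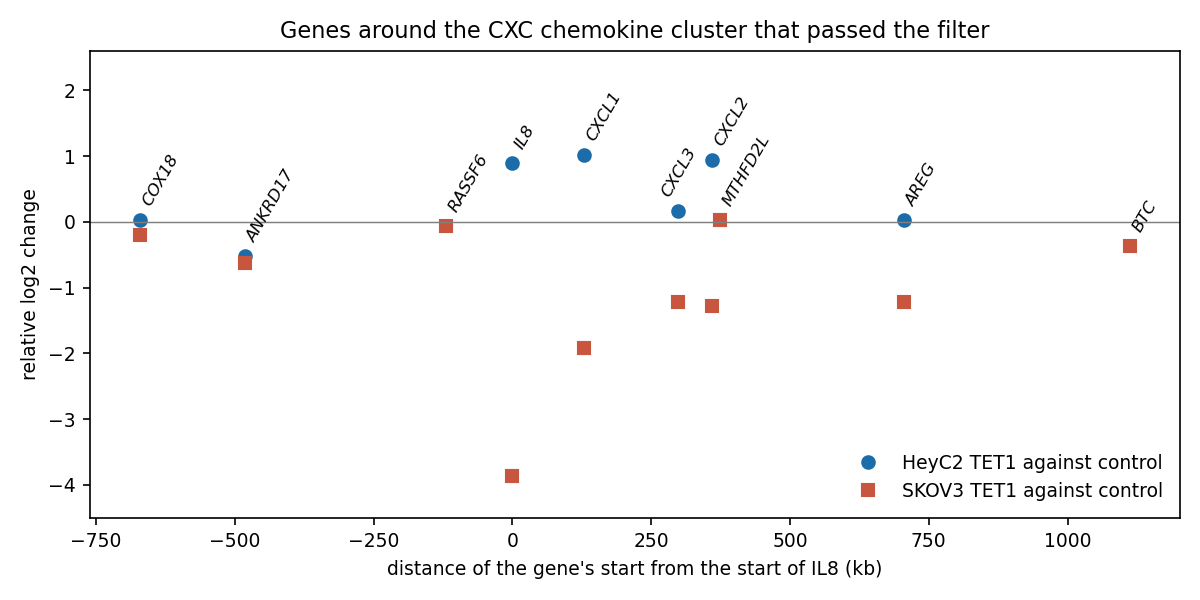
Relative log2 change of genes that passed the filter around the chemokine cluster and are above 0 in both libraries, against the distance of the gene's start from that of IL8 in kb (HeyC2 blue circles, SKOV3 red squares). IL8, CXCL1 and CXCL2 are 0.90 to 1.01 in HeyC2 and −3.87 to −1.28 in SKOV3. Of the other genes drawn, CXCL3 (−1.22), AREG (−1.22) and ANKRD17 (−0.62) are also lower in SKOV3. COX18 (−0.20), RASSF6 (−0.06), MTHFD2L (0.03) and BTC (−0.37) are within the threshold there, the last 3 with a SKOV3 point only.

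Genes most like the group were sought over the 4 libraries, by Euclidean distance between centred log2(FPKM + 1) profiles among 13089 genes. Among the nearest to the mean of the 8 members that passed the filter in both lines were PDE1C (distance 0.22), EPHA2 (0.23), PBDC1 (0.28) and RAB38 (0.29). That mean joins members that differ in opposite ways between the controls, such as IL1B (8.67) and CXCL1 (−2.27). It thus need not be like any single member. It also holds IL6, IL1A and IL1B, which passed in SKOV3 only through the control. Nearest to IL6 were TMEM154 (0.27), POPDC3 (0.34), IGF2BP3 (0.38), RAI14 (0.41) and MGST1 (0.41). Among the nearest to IL8 were PTPRR (0.79), SFN (0.80), DKK1 (0.81) and ADM (0.87). With 4 libraries many genes can lie this near, and the distances are given as a description.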

How the data were processed

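RNA-seq FPKM of HeyC2 and SKOV3 cells were used, 1 library per condition (control and TET1). The deposited FPKM are, per the labels, from paired-end TruSeq libraries that the authors aligned to hg19 with Bowtie2 2.2.6 and quantified with RSEM 1.2.17, in 1 table per line. The gene annotation and read totals are not given in the sources used here. The TET1 columns had been multiplied by a constant that equates GAPDH. It was recovered from the spacing of the values: 100% of the 1220 (HeyC2) and 2637 (SKOV3) distinct values up to 40 FPKM lay on the grid, and these columns were divided by it.

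Relative log2 changes used a pseudocount of 1, a mean FPKM of at least 1 and centring on the median gene. No test was run, since each condition has 1 library. Depth was estimated from the transcript lengths at which small FPKM give whole fragments; 45% to 62.1% of the values checked lay within 0.1 of a whole number, so fragment numbers, which also assume the canonical transcript length less 200 bases, are approximate. The 10 members and the 11 other gene lists (135 genes in all lists) were chosen with earlier results of these data known. In each pathway list the genes named are those past 1.5-fold in the same direction in both lines and the 2 highest and 2 lowest per line; others that are called were added, some after their values were seen. The nearest 5 genes per profile were named, except some that are not reported here. Alternatives were the deposited TET1 column, pseudocounts of 0.1 and 0.01, no filter, a mean FPKM of at least 5, TPM, upper-quartile scaling, centring on the 500 nearest genes, 2-fold, 1.2-fold and CXCL1, CXCL2 and CXCL3 summed. Gene positions came from GENCODE on GRCh37 and promoters from RefSeq on GRCh38.p14. The calculations were tested on simulated data and used Python 3.11.15, numpy 2.4.6, pandas 2.3.3, scipy 1.17.1 and matplotlib 3.10.9.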

Additional observations from a re-analysis of the deposited data

Results flagged for a closer look

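For 3 chemokine genes the TET1 library was above the control in HeyC2 and below it in SKOV3, past 1.5-fold on both sides. The relative log2 change in HeyC2 minus that in SKOV3 was 4.77 for IL8, 2.93 for CXCL1 and 2.22 for CXCL2. Each line has 1 library per condition, so this difference was not tested. Of the 11134 genes measurable in both lines, 197 (1.77%) had the same opposite calls and 154 (1.38%) had the reverse.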

How the results depend on the processing

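No result changed sign past the threshold under the alternatives run, and 195 of the recomputed member values moved by less than 1.5-fold. The other 8 were SKOV3 genes with few fragments: IL6 was at −1.97 and −2.12 with pseudocounts of 0.1 and 0.01, IL1A at −3.10 and −3.40, and IL1B at −3.33 and −3.74, while on TPM IL1A was at −2.40 and IL1B at −2.46. At 2-fold, HeyC2 had 1 member higher and 1 lower in place of 3 and 3. With a mean FPKM of at least 5, 4 members were lower in SKOV3 in place of 8, since fewer passed, and the HeyC2 median was −0.05 in place of 0.35. Between the controls, 5 members were lower in HeyC2 without a filter or at 1.2-fold, in place of 3. With the deposited column, HeyC2 IL1A was called higher (0.61) and LIF was not called (−0.55). Centring on the 500 nearest genes made SKOV3 CCL20 lower (−0.60). No paired analysis was possible within a line because each group has 1 library, and no library could be left out for the same reason. A fit over both lines with the cell line as a block, which would have 1 residual degree of freedom, was not run. Depth limits CCL2, CCL20 and the SKOV3 values of IL6, IL1A and IL1B, which rest on 7 or fewer fragments in at least 1 library.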

Other observations

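IL1A and IL1B lie next to each other on chromosome 2 (GRCh37), and genes up to 1000 kb around them were examined after the values had been seen. CKAP2L, the neighbour of IL1A, was at 4.31 FPKM in the HeyC2 control and 1.75 in HeyC2 TET1 (relative log2 change −1.01), and at 21.10 and 9.71 in SKOV3 (−1.24). SLC20A1, a phosphate transporter gene, was at 661.96 and 296.34 FPKM in HeyC2 (−1.21) and at 65.03 and 42.40 in SKOV3 (−0.80). Both were thus lower with TET1 in both lines, as were 2.54% of the 11134 genes that passed in both. IL1B was also lower in both, in SKOV3 on 27 against 2 fragments. No relation of these changes to position was tested. IL1A, between CKAP2L and IL1B, was within the threshold in HeyC2 (0.49). Of the 14 neighbours that passed in each line, CKAP2L and SLC20A1 were the 2 lower ones. In HeyC2 3 were higher (FBLN7 at 1.38, PSD4 at 0.80 and ZC3H8 at 0.78). In SKOV3 4 were higher (RABL2A at 2.17, ZC3H6 at 0.90, SLC35F5 at 0.83 and PAX8 at 0.61). ZC3H6, at 0.48 FPKM in the SKOV3 control and 2.16 in TET1, passed only through the TET1 library. The SKOV3 count is thus not support for a change of the region. Of all genes tested, 12.5% were higher and 9.17% lower in HeyC2, and 20.7% and 18.2% in SKOV3. CHCHD5 (−0.34 and 0.09) and TTL (0.01 and 0.36) were within the threshold. The interleukin-1 family genes IL36A, IL36B, IL36RN and IL1F10 were listed at 0 FPKM in all 4 libraries, and IL37 and IL36G did not exceed 0.63. PAX8, on the far side of the family, was at 0.54 in HeyC2.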
